A study of Mus musculus with 2 samples.

Results

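The insulin-like growth factor (IGF) genes described here are 10 of the 31053 genes measured in single cells of the e13.5 mouse eye cup. They were chosen by name as the family's ligands (Igf1 and Igf2), its receptors (Igf1r and Igf2r), its binding proteins (Igfbp2, Igfbp3, Igfbp4 and Igfbp5) and its related proteins (Igfbp7 and Igfbpl1), and all 10 were found in the gene list. The study compared eye cups carrying floxed Myrf alleles without Cre (Myrf fl/fl, called control) with eye cups in which Rx>cre, active in the optic vesicle that forms the retina and the retinal pigment epithelium (RPE), deleted Myrf (Rx>cre Myrf fl/fl, called mutant). Both genotypes carry the floxed alleles, no Cre-only library was among them, and cells outside the Rx lineage keep an intact Myrf gene in both. Cornea, lens and optic nerve had been taken off the eyes. Each genotype was 1 library made from 3 pooled eye cup samples, so there is no replicate and no test: differences compare 2 libraries, not the genotypes, and the intervals cover counting error only.

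Insulin-like growth factors are secreted ligands that act through Igf1r, a receptor tyrosine kinase, while Igf2r takes up Igf2 and delivers it to lysosomes. The Igfbp proteins bind the ligands outside the cell, prolonging their life and limiting or directing their access to the receptor. Igfbp7 is a more distant relative that binds these ligands weakly and is found in vessel walls, and Igfbpl1 is a related secreted protein known from growing neurons. Which cells make which of these proteins bears on where the ligands can act.

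The control library held 6039 barcodes and 63483835 unique molecular identifiers (UMIs, each standing for 1 captured RNA molecule), and the mutant library held 6754 barcodes and 75228861 UMIs. After filtering, 5451 control and 6309 mutant cells were kept, with median depths of 11331 and 11160 UMIs. Cells were grouped into 15 classes named from marker genes, leaving 1580 control and 1498 mutant cells unnamed. A level is the class's UMIs of a gene per 1000000 UMIs of that class (CPM), with an exact Poisson interval. In RPE-like cells Myrf stood at 73.6 CPM in the control and 20.0 CPM in the mutant library; the exon deleted is not given in the sources used here, so 3′ UMIs may lie outside it.

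Each gene of the family had its own map over the eye cup. Igf1 was highest in tendon-like mesenchyme, Igfbp3 and Igfbp4 were highest in endothelial-like cells, Igfbp5 and Igfbp7 in RPE-like cells, Igf1r in amacrine or horizontal-like cells, Igf2r in tendon-like mesenchyme, Igfbp2 in surface ectoderm-like cells and Igfbpl1 in ganglion cell-like cells. Each of these classes ranked first among the 15 in both libraries. Over 13 other settings of the processing the leading class was kept throughout for Igfbp3, Igfbp4, Igfbp5 and Igfbpl1. It was kept in 12 settings for Igfbp7 and in 11 for Igf1, Igf1r, Igf2r and Igfbp2. For these last genes the leading class was missing or small in the settings where another led. The numbers therefore do not measure how firm each lead is.

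**Figure D1:**
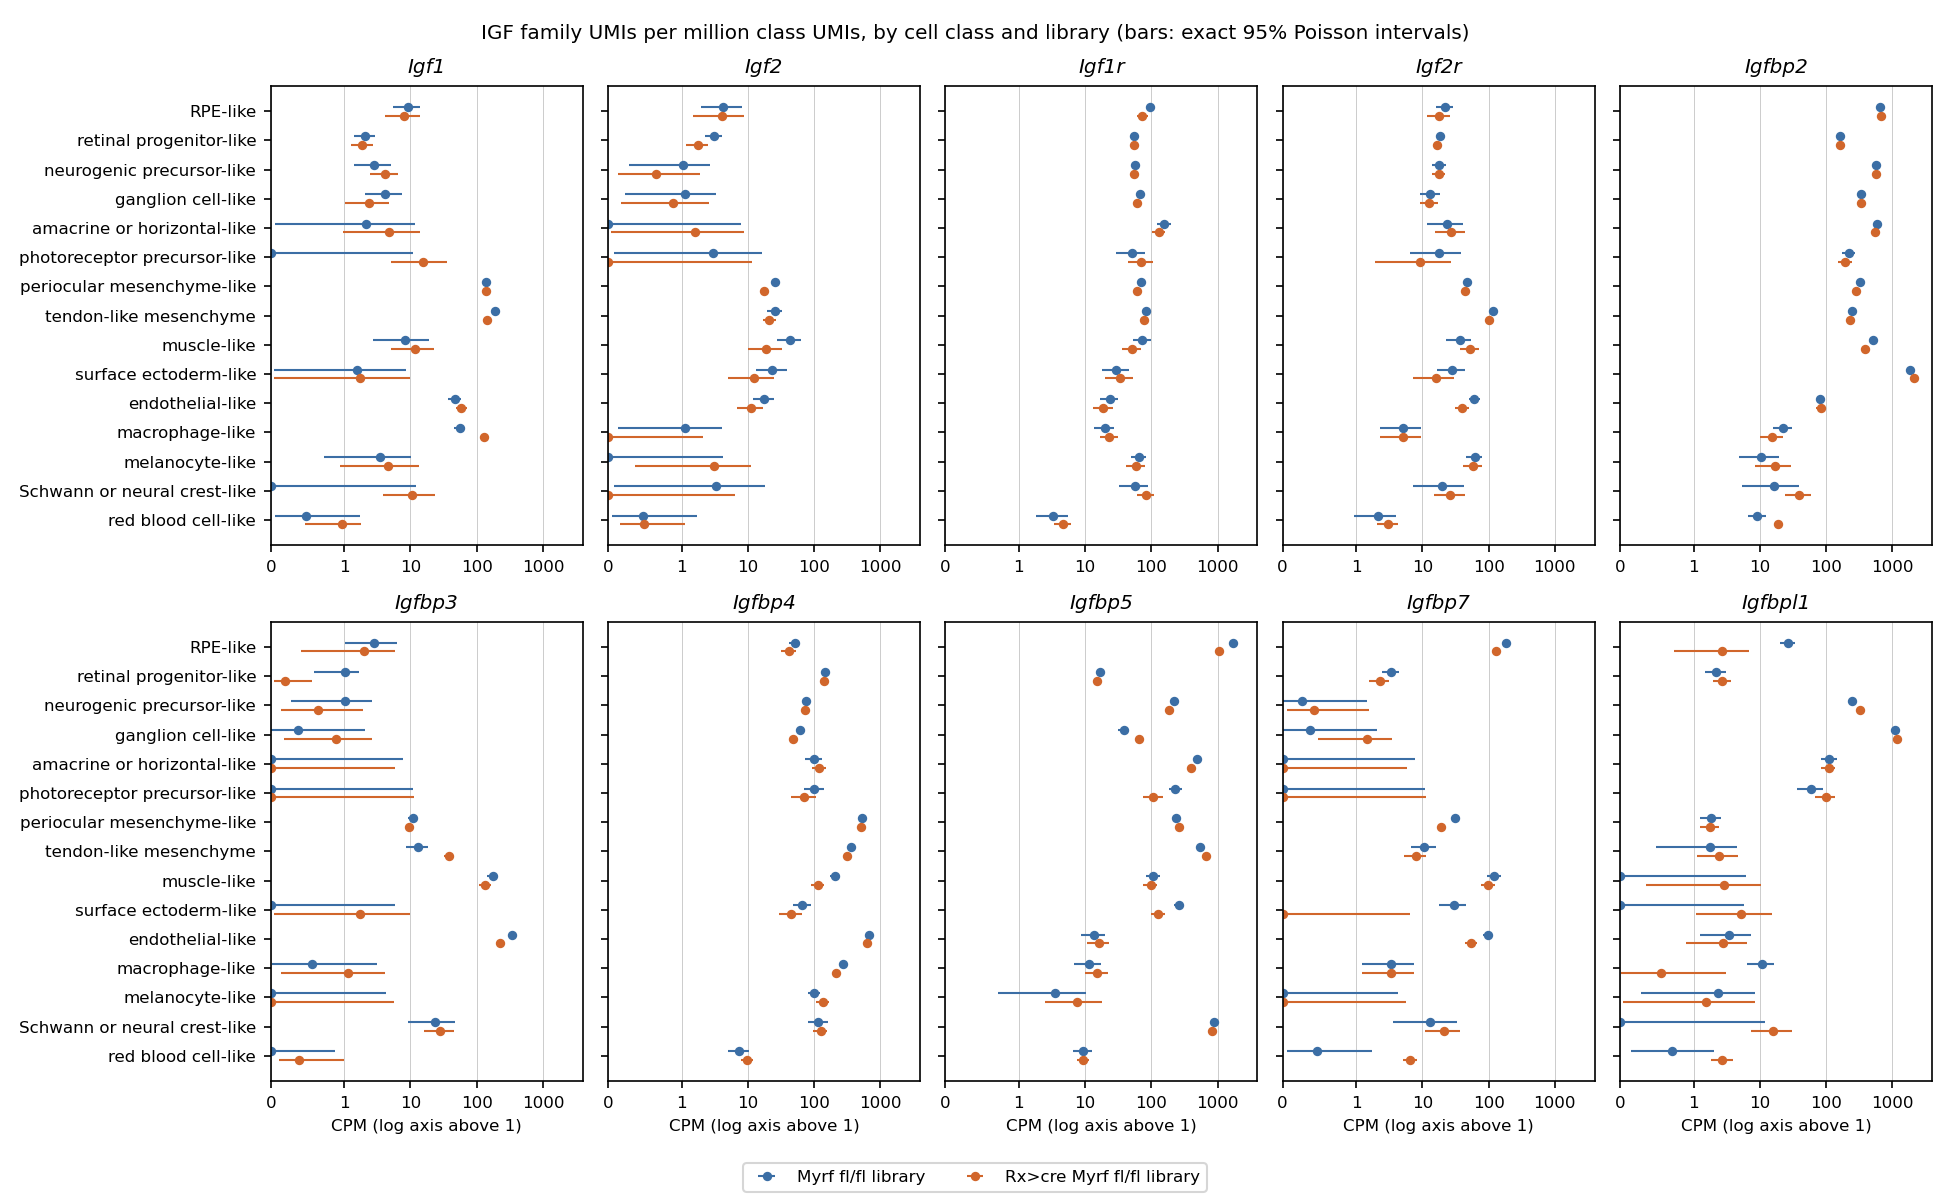
Level of each of the 10 genes in CPM (x axis, logarithmic above 1 and linear below) in the 15 named classes (y axis) of the control and the mutant library, with exact 95% Poisson intervals as bars. Igfbpl1 stands at 1087 and 1193 CPM in ganglion cell-like cells, Igfbp5 at 1705 and 1063 CPM in RPE-like cells, and Igf1 is at 2.05 and 1.88 CPM in retinal progenitor-like cells.

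Igf1 (chromosome 10, 87858265 to 87937042, plus strand, GRCm38), the main growth-promoting ligand, had 3392 control and 4112 mutant UMIs. Periocular mesenchyme-like cells held 71.3% of the control and 71.7% of the mutant UMIs. The level was 137.4 CPM (132.0 to 143.0) in control and 138.8 CPM (133.8 to 143.9) in mutant mesenchyme. It was 188.8 CPM and 143.3 CPM in tendon-like mesenchyme, the Meox1- and Scx-expressing cells. The order of these classes and of the macrophage-like cells below them was not settled beyond the spread of the libraries. All of these classes and endothelial-like cells stood apart from the classes below, where muscle-like cells came next by the mean of the libraries at 8.26 and 11.7 CPM. Retinal progenitor-like cells had 2.05 and 1.88 CPM. Photoreceptor precursor-like cells, 28 and 30 in number, had 0 CPM in the control and 15.4 CPM in the mutant library. RPE-like cells had 19 control and 12 mutant UMIs, 9.02 and 8.02 CPM.

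Igf2 (chromosome 7, 142650766 to 142666816, minus strand, GRCm38), the fetal ligand, could not be measured well. Of its 5723 annotated exonic bases 3596 also belong to Gm49394 on the same strand, including 997 of the last 1000 bases, which 3′ libraries read. A read there matches 2 genes, and Gm49394 had 0 control and 1 mutant UMI, so the 733 control and 578 mutant UMIs given to Igf2 are a remainder. Of these, 63.0% and 64.0% were in periocular mesenchyme-like cells, the named class with the most cells. By the mean of the libraries muscle-like cells led at 43.0 and 18.9 CPM. Periocular mesenchyme-like cells had 26.2 and 17.4 CPM and surface ectoderm-like cells 23.4 and 12.3 CPM, and no neighbouring classes stood apart. The neighbouring H19, an imprinted RNA from the other parental copy of the region, had 10292 and 10681 UMIs. No level or difference of Igf2 is taken here as that of the gene.

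Igf1r (chromosome 7, 67952827 to 68233668, plus strand), the signalling receptor, was spread widely. It was found in every named class, from 156.6 CPM (122.9 to 196.5) in control amacrine or horizontal-like cells to 3.31 CPM in control cells of the red blood cell-like class. Along the ordered classes no neighbours stood apart until the last step, from endothelial-like to red blood cell-like cells. In retinal progenitor-like cells, which had almost no Igf1, the receptor stood at 54.9 and 55.2 CPM. Endothelial-like cells (23.4 and 18.9 CPM) and macrophage-like cells (19.7 and 23.1 CPM) were near the bottom.

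Igf2r (chromosome 17, 12682406 to 12769664, minus strand), the clearance receptor, was highest in tendon-like mesenchyme at 117.9 CPM (104.2 to 133.0) and 101.9 CPM (91.8 to 112.7). This was apart from melanocyte-like cells, next at 61.6 and 58.1 CPM. Endothelial-like cells followed at 60.9 and 40.0 CPM and periocular mesenchyme-like cells at 47.7 and 43.6 CPM, while retinal progenitor-like cells had 18.4 and 16.5 CPM. Red blood cell-like cells were lowest at 2.13 and 3.02 CPM.

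Igfbp2 (chromosome 1, 72824503 to 72852474, plus strand) had its highest level in surface ectoderm-like cells, the Krt5- and Wnt6-expressing outer epithelium, at 1881 CPM (1777 to 1990.3) in 73 control cells and 2146 CPM (2028 to 2270.1) in 67 mutant cells. RPE-like cells came second with 659.7 and 667.3 CPM. Neurogenic precursor-like cells had 575.3 and 576.4 CPM, against 162.7 and 161.8 CPM in retinal progenitor-like cells. Each of the first 3 classes was apart from the next of them. Neurogenic precursor-like cells were not apart from amacrine or horizontal-like cells, at 594.5 and 556.3 CPM. Only neighbours by the mean were compared, so RPE-like cells are not shown as apart from the amacrine or horizontal-like class.

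Igfbp5 lies next to Igfbp2 (chromosome 1, 72857932 to 72874884, minus strand), the 3′ ends of the genes facing each other across 5457 bases. Its highest level was in RPE-like cells, 1705 CPM (1649 to 1761) in the control and 1063 CPM (1011 to 1116) in the mutant library. Schwann or neural crest-like cells followed at 895.4 and 816.3 CPM in 22 and 38 cells, and tendon-like mesenchyme at 551.5 and 660.8 CPM. Surface ectoderm-like cells, the class with the most Igfbp2, had 258.5 and 126.3 CPM. Endothelial-like and melanocyte-like cells had under 17 CPM in both libraries.

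Igfbp3 (chromosome 11, 7206086 to 7213923, minus strand) and Igfbp4 (chromosome 11, 99041244 to 99054392, plus strand), both carriers of the ligands, were highest in endothelial-like cells. Igfbp3 had 336.6 CPM in the control and 223.3 CPM in the mutant library there, and muscle-like cells came next with 173.5 and 134.1 CPM, apart from every class below. Igfbp4 was the broader of the pair. It had 673.8 and 631.0 CPM in endothelial-like cells, 540.4 and 519.9 CPM in periocular mesenchyme-like cells and 147.5 and 140.4 CPM in retinal progenitor-like cells. Tendon-like mesenchyme and macrophage-like cells followed, at 365.3 and 317.9 CPM and at 272.4 and 218.4 CPM, and these 4 classes were apart at each step.

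Among the named classes Igfbp7 (chromosome 5, 77349240 to 77408041, minus strand) was highest in RPE-like cells. It had 185.6 CPM (167.6 to 204.9) in the control and 130.9 CPM (113.2 to 150.6) in the mutant library there. The unnamed cluster 22 was far above this in both libraries, with levels given at the end. Muscle-like cells had 120.6 and 97.6 CPM and endothelial-like cells 97.4 and 54.4 CPM, and the order of these 3 classes was not settled. The RPE level rested on few cells: without those with at least 10 Igfbp7 UMIs (below) it was 67.1 and 84.8 CPM. With cells of up to 20000 UMIs alone, endothelial-like cells were highest. In the neurogenic precursor-like class 1 control and 2 mutant UMIs were found.

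Igfbpl1 (chromosome 4, 45809468 to 45826923, minus strand) was a gene of neurons in these classes. Ganglion cell-like cells held 70.1% of its control and 69.4% of its mutant UMIs, at 1087 CPM (1047 to 1127) and 1193 CPM (1156 to 1230.2). Neurogenic precursor-like cells followed at 245.6 and 323.6 CPM, apart from the classes on either side, and amacrine or horizontal-like cells at 112.1 and 109.7 CPM. Retinal progenitor-like cells had 2.18 and 2.72 CPM.

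The share of cells with at least 1 UMI depends on depth, so each cell was thinned to 3000 UMIs. In thinned cells Igfbpl1 was seen in 73.8% of control and 74.8% of mutant ganglion cell-like cells, and in 36.1% and 36.9% of neurogenic precursor-like cells. Igfbp5 was seen in 92.6% and 83.8% of RPE-like cells, Igfbp2 in 82.2% and 86.2% of them, and Igfbp4 in 86.5% and 69.6% of endothelial-like cells. Igf1 was seen in 32.6% and 32.1% of periocular mesenchyme-like cells. Cells of the red blood cell-like class, used as the background because these genes should be absent from them, had a UMI of Igfbp4 in 3.93% and 2.17%, of Igfbp2 in 1.69% and 3.86%, and of Igfbpl1 in 0% and 0.966% of cells. Without thinning the shares were 61.6% and 59.4% for Igfbpl1 in ganglion cell-like cells, where 137 control and 226 mutant cells were under the depth limit, 76.4% and 70.5% for Igfbp5 in RPE-like cells, and 71.4% and 74.0% for Igf1 in periocular mesenchyme-like cells. Median depths were 3993 and 3540 UMIs in RPE-like cells against 22427 and 22706 UMIs in red blood cell-like cells. Thinning took more UMIs from red blood cell-like cells, so their shares need not equal the background of shallow classes.

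The neural retina clusters were set in the order of neuron formation by the genes that led them, not by time. Igfbpl1 had 2.02 and 2.54 CPM in the Rax-expressing progenitor-like cluster 1 and 2.34 and 2.91 CPM in the dividing, Fgf15-expressing cluster 4. It had 53.7 and 77.8 CPM in cluster 14, led by Neurog2, a transcription factor that starts neurogenesis. In cluster 13, with Isl1 and Pou4f2, factors of early ganglion cells, it had 420.9 and 511.0 CPM, and in the ganglion cell-like cluster 16, with neurofilament genes, it had 1262 and 1426 CPM. From cluster 4 onward, both libraries of each of these 5 clusters were above both of the one before. The other ganglion cell-like cluster, 10, which also carried neurofilament genes at a median depth of 1730 UMIs, broke this order with 308.5 and 393.9 CPM, below cluster 13.

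Igfbp2 and Igfbp5 took other courses through the same clusters. Igfbp2 had 148.7 and 146.1 CPM in cluster 4, 532.7 and 597.8 CPM in cluster 14, 614.2 and 560.1 CPM in cluster 13, and 368.5 and 374.9 CPM in cluster 16. Igfbp5 had 12.5 and 12.8 CPM in cluster 4, reached 321.7 and 262.9 CPM in cluster 13, and was at 25.6 and 49.0 CPM in cluster 16. Cluster 10 stood between the last pair, with 95.4 and 116.8 CPM of Igfbp5, and had 194.9 and 219.2 CPM of Igfbp2, below both.

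**Figure D2:**
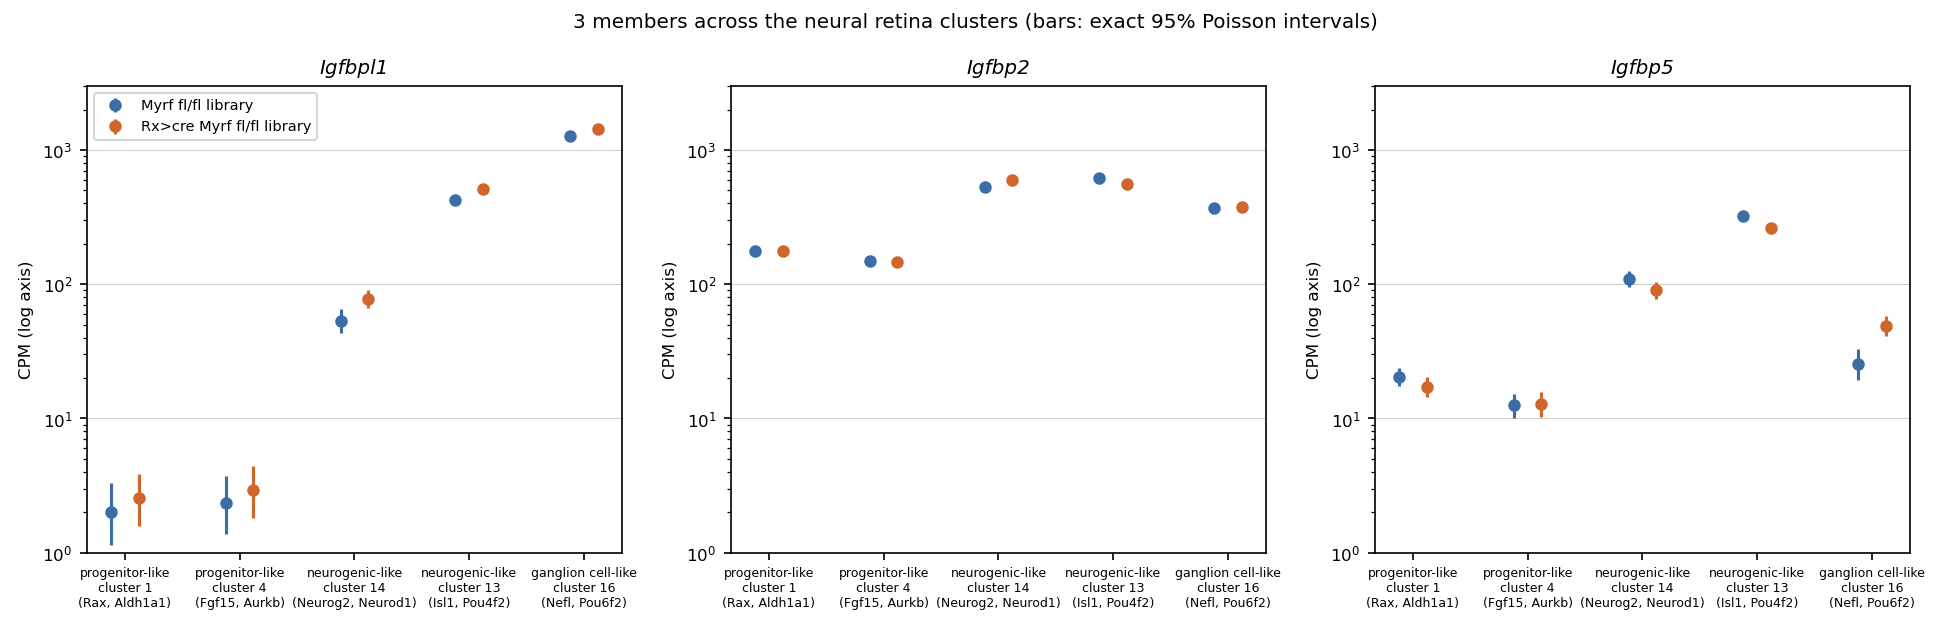
Level in CPM (y axis, logarithmic) of Igfbpl1, Igfbp2 and Igfbp5 in 5 neural retina clusters (x axis, with leading genes) of the control and the mutant library; bars are exact 95% Poisson intervals, hidden by the points where short. Igfbpl1 is higher at each step from cluster 4 to cluster 16, while Igfbp5 is highest in cluster 13; the shallow ganglion cell-like cluster 10 is not drawn.

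The periocular mesenchyme, neural crest- and mesoderm-derived tissue around the eye cup, fell into 5 clusters, and the members differed between them in both libraries. Igf1 was highest in cluster 2, with Tfap2b and Nbl1, at 199.2 CPM in the control library (log2 ratio 0.01, -0.12 to 0.13), and lowest in cluster 17, with Fmo1 and Spp1, at 79.8 and 87.4 CPM. Igfbp2 had its highest level in cluster 17, 563.9 and 465.8 CPM, and its lowest in cluster 11, with Col9a3 and Sox9, 140.7 and 164.8 CPM. Igfbp3 was also highest in cluster 17 at 31.6 and 14.1 CPM, though cluster 2 was close to it in the mutant library at 12.8 CPM. It was under 1 CPM in cluster 11 in both libraries. Igfbp5 was highest in clusters 2 and 8, the latter with Aldh1a2 and Six2, at 338.4 and 325.6 CPM in the control library. Igf1r was highest in cluster 8 at 100.7 and 86.4 CPM. Igfbp4 was high in all 5, from 397.5 to 685.0 CPM in the control library.

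**Figure D3:**
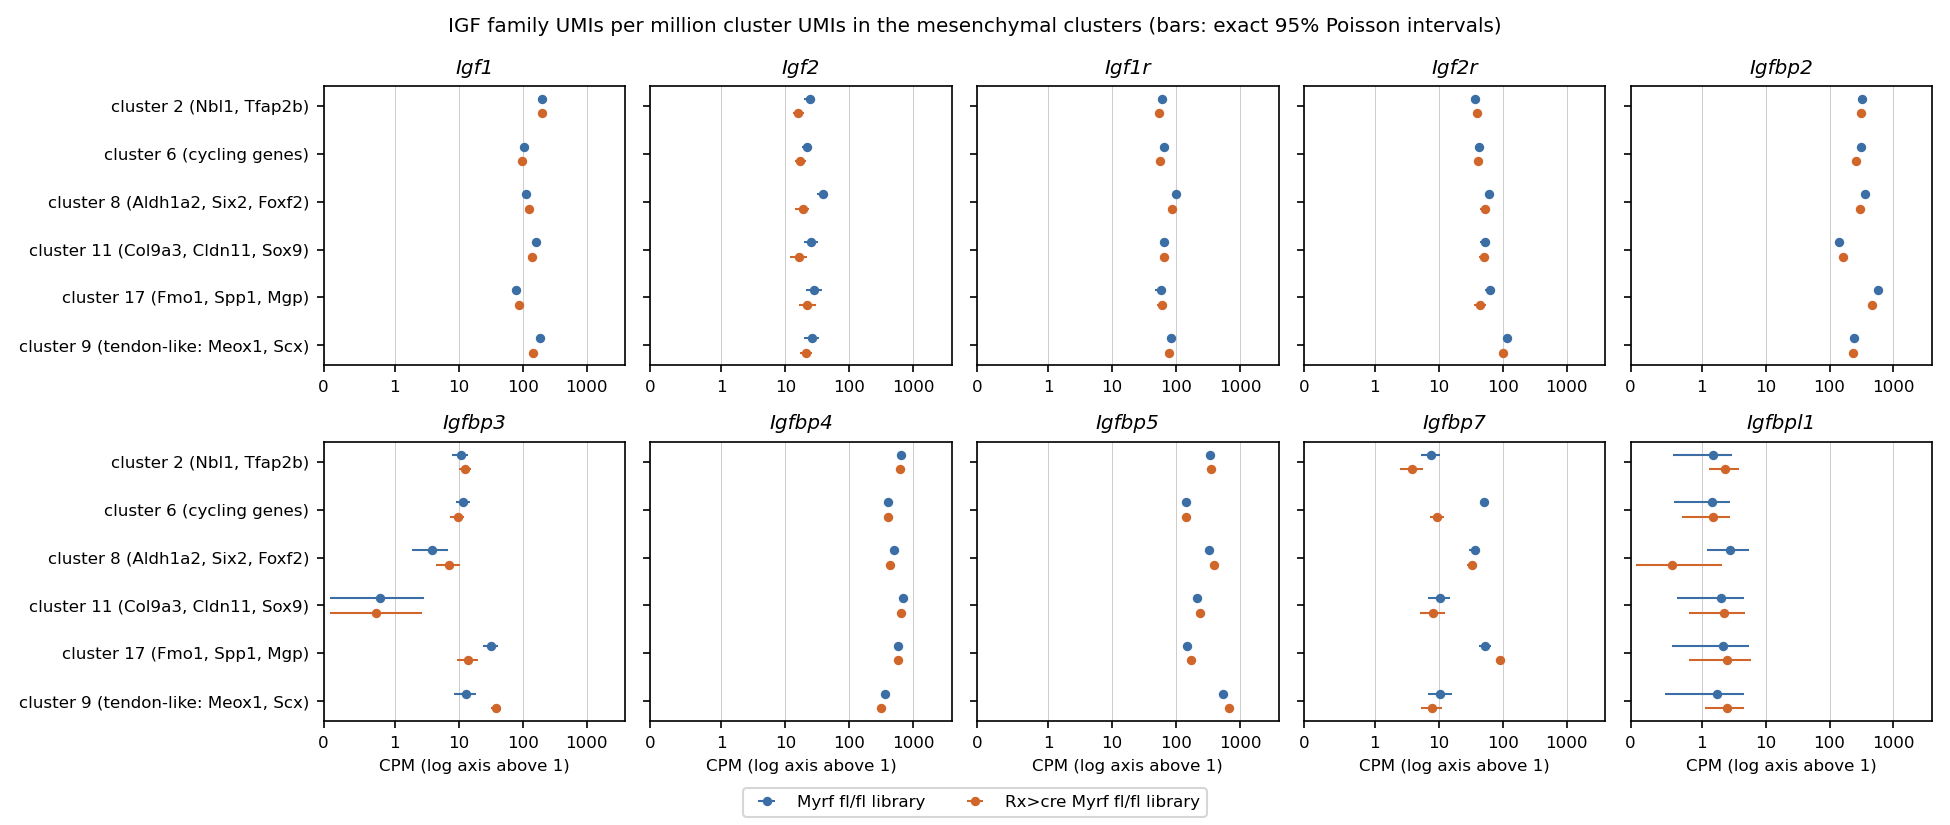
Level in CPM (x axis, logarithmic above 1 and linear below) of the 10 genes in the 5 periocular mesenchyme-like clusters and the tendon-like cluster (y axis, with leading genes) of the control and the mutant library, with exact 95% Poisson intervals. Cluster 17 is lowest for Igf1 and highest for Igfbp2, and Igfbp7 in cluster 6 stands at 51.4 CPM in the control and 9.51 CPM in the mutant library.

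The comparison of the libraries asked whether the family's levels differ where Myrf was deleted (RPE, neural retina) and around it. The log2 ratio, mutant over control, was taken with 1 UMI added to each sum, for genes with at least 50 UMIs over both libraries and classes of at least 30 cells in each. A gene was counted when its ratio was at least 1.5-fold either way. In RPE-like cells 2 of 7 members were counted (Igfbp5 and Igfbpl1), where 11.0% of the 6933 genes measured were. In retinal progenitor-like cells it was 1 of 9 (Igf2), against 2.54% of all genes. In periocular mesenchyme-like cells it was 2 of 10 (Igf2 and Igfbp7), against 2.75%. In endothelial-like cells it was 4 of 9 (Igf2, Igf2r, Igfbp3 and Igfbp7), against 6.57%.

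In tendon-like mesenchyme 1 of 9 members was counted (Igfbp3), against 5.64% of all genes. It was 1 of 6 (Igfbp5) in ganglion cell-like cells, against 4.44%, and 1 of 4 (Igf1) in macrophage-like cells, against 8.86%. In surface ectoderm-like cells it was 1 of 3 (Igfbp5), against 11.7%. None was counted of 6 in neurogenic precursor-like cells (4.12% of all genes), of 5 in amacrine or horizontal-like cells (7.89%) or of 3 in melanocyte-like cells (7.63%); no test was made in any class, so these counts come without a p-value. In the red blood cell-like class 2 of 5 (Igfbp2 and Igfbp7) were counted, but so were 36.2% of all genes, and the median log2 ratio of all genes was 0.408 there. The Igf2 values among these are of the remainder described above. With so few members a class, none of these shares is read as particular to the family. The median log2 ratio of the members was -0.38 in RPE-like cells and -0.14 in periocular mesenchyme-like cells, against -0.030 and -0.037 over all genes. In the other classes it ran from -0.53 in surface ectoderm-like to 0.43 in red blood cell-like cells. These medians rest on few values, 7 and 10 in the first pair, and are not read as particular to the family either.

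**Figure D4:**
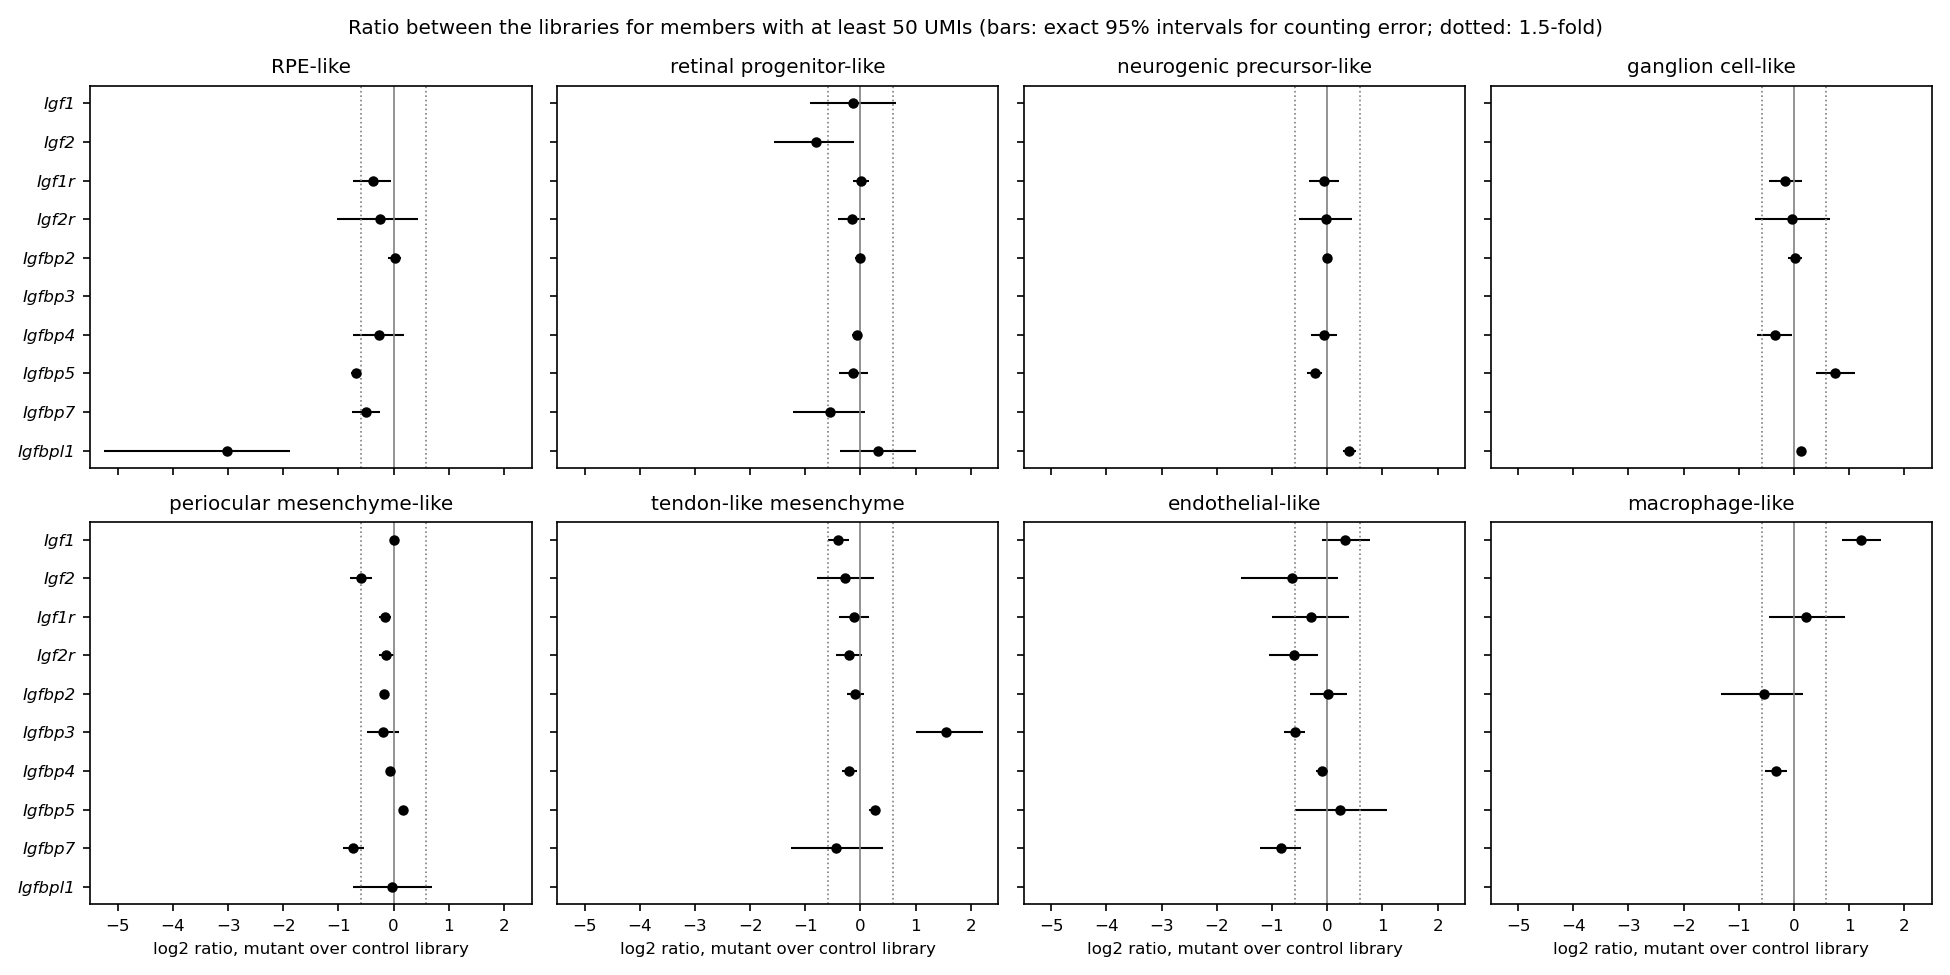
The log2 ratio of mutant over control library (x axis) for the members with at least 50 UMIs (y axis) in 8 classes, with exact 95% intervals for counting error as bars and 1.5-fold as dotted lines. Most points lie between the dotted lines; Igfbp5 in RPE-like cells is at -0.68, Igfbp3 in tendon-like mesenchyme at 1.55 and Igf1 in macrophage-like cells at 1.21.

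In RPE-like cells Igfbp5, the class's leading member, had 3592 UMIs in 259 control cells and 1591 UMIs in 156 mutant cells. The mutant level was 0.624 of the control (log2 ratio -0.68, -0.77 to -0.60). In cells thinned to 3000 UMIs the median was 4 UMIs (quartiles 2 and 7, highest 40) in 135 control cells and 3 UMIs (quartiles 1 and 6, highest 24) in 80 mutant cells, so the 2 sets of cells overlapped widely. The Igfbp5 level was 1081 against 668 CPM in cells of up to 3000 UMIs, 1990 against 1504 CPM in cells of 3000 to 20000 UMIs, and 831 against 694 CPM above that. It was lower in the mutant library in all 3 depth ranges. The 16 control and 27 mutant cells above 20000 UMIs held 19.2% of the control and 47.9% of the mutant UMIs of the class, and without them the log2 ratio was -0.45, under 1.5-fold. With a mitochondrial limit of 5%, which left 110 and 87 cells, it was -0.32. The summed RPE marker list was also lower in the mutant library, 13683 against 9851 CPM. The part of these markers and of depth in the Igfbp5 difference was not tested.

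Igfbp2, the neighbouring gene, was level between the libraries in RPE-like cells within counting error. It had 1390 control and 999 mutant UMIs, with a log2 ratio of 0.02 (-0.10 to 0.13). Igf1r with 202 and 110 UMIs was lower in the mutant library (-0.38, -0.73 to -0.04), as was Igfbp7 with 391 and 196 UMIs (-0.50, -0.76 to -0.25), both under 1.5-fold. Neither direction held in shallow cells: in those of up to 3000 UMIs, Igf1r stood at 96.4 CPM (52.7 to 161.7) against 158.9 CPM (89.0 to 262.1) and Igfbp7 at 185.9 CPM (122.5 to 270.4) against 222.5 CPM (137.7 to 340.1), with intervals that overlap. In both deeper ranges the mutant library was lower for each. Igfbp7 was uneven between these cells: 17 control cells with at least 10 UMIs, a limit set after the values were seen, held 273 of the 391, and 5 mutant cells held 79 of the 196. These cells were deep, with medians of 19545 and 20397 UMIs, and carried the RPE marker list at 17508 and 15636 CPM, against 12927 and 9362 CPM in the rest of the class. Without these cells, which were picked by the gene itself, 118 and 117 UMIs were left and the mutant library was the higher one, with an interval that reaches 0 (0.34, -0.04 to 0.72). The pericyte list stood at 40.2 and 34.3 CPM in them and at 33.0 and 35.5 CPM in the rest. Igfbp4 (107 and 63 UMIs) and Igf2r (46 and 27 UMIs) had intervals that reach past 0. Igf1, Igf2 and Igfbp3 were under 50 UMIs and were not counted. Igfbpl1 had 56 control and 4 mutant UMIs (log2 ratio -3.02), but 2 control cells held 47 of the 56, and without the top cell of each library 23 and 3 UMIs were left. The ganglion cell marker list stood at 309.9 CPM in control and 151.6 CPM in mutant RPE-like cells, and its part in this value was not tested.

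In the neural retina, the Rx lineage where Myrf itself was at most 1.03 CPM in progenitor-like cells, the members were close between the libraries. In retinal progenitor-like cells the log2 ratio was 0.01 (-0.13 to 0.15) for Igf1r, -0.01 (-0.09 to 0.07) for Igfbp2 and -0.07 (-0.16 to 0.01) for Igfbp4. Igfbpl1 was slightly higher in the mutant library in neurogenic precursor-like cells (0.40, 0.28 to 0.52) and in ganglion cell-like cells (0.13, 0.07 to 0.20), both under 1.5-fold. The first of these was 0.06 in female cells alone and 0.55 in male cells alone. The libraries differed in sex, with 1959 female and 1139 male cells in the control and 1562 and 1765 in the mutant library. The other cells were not assigned a sex, and the part of sex in the ratios was not tested. Igfbp5 in ganglion cell-like cells had 103 control and 217 mutant UMIs (0.74, 0.40 to 1.10). This value moved with the processing, to 0.36 without integration of the libraries and -0.08 at a resolution of 0.4, and cluster 13 had the reverse order of the libraries (-0.29, -0.45 to -0.13).

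In periocular mesenchyme-like cells, outside the Rx lineage, Igf1 was level at 0.01 (-0.06 to 0.09) and Igfbp4 at -0.06 (-0.10 to -0.02). Igfbp2 was at -0.18 (-0.23 to -0.13) and Igfbp5 at 0.16 (0.10 to 0.22), both beyond counting error and under 1.5-fold. Igfbp7 had 554 control and 404 mutant UMIs (-0.73, -0.92 to -0.54). Its clusters differed. Cluster 6 had 288 and 63 UMIs (-2.42, -2.85 to -2.04), cluster 8 had 105 and 115 (-0.12, -0.51 to 0.28), and cluster 17 had 99 and 179 (0.76, 0.40 to 1.13).

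A few cells held much of the Igfbp7 in this class. The 3 control and 4 mutant mesenchyme-like cells with at least 10 Igfbp7 UMIs, a limit set after the values were seen, held 172 of 554 and 116 of 404 UMIs. These cells carried pericyte markers, genes of the contractile cells on small vessels: Kcnj8 stood at 374.4 and 681.2 CPM in them against 4.51 and 1.04 CPM in the rest, Rgs5 at 407.5 and 443.6 CPM against 1.71 and 2.08 CPM, and Ndufa4l2 at 484.5 and 934.6 CPM against 4.85 and 3.02 CPM. Pecam1 and Cdh5, which define endothelium, had 0 UMIs in them. Of the control cells 2 lay in cluster 6, where they held 157 of the 288 UMIs, and 1 in cluster 17, with 15 of its 99. All 4 mutant cells lay in cluster 17, with 116 of its 179 UMIs. Without them cluster 17 had 84 and 63 UMIs and its direction turned (-0.47, -0.97 to 0.01), and cluster 6 had 131 and 63 (-1.30, -1.77 to -0.87). No cluster took the name of pericytes in any clustering. Without these cells the log2 ratio of Igfbp7 in the class was -0.68 (-0.91 to -0.46).

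In endothelial-like cells, 143 control and 148 mutant, Igfbp7 had 171 and 98 UMIs (-0.83, -1.21 to -0.47) and Igf2r 107 and 72 UMIs (-0.60, -1.06 to -0.16). Igfbp3 had 591 and 402 UMIs (-0.59, -0.78 to -0.41), but 1 control cell held 194 of them. Without the top cell of each library the Igfbp3 ratio was -0.19 (-0.40 to 0.02), under 1.5-fold, while Igfbp7, with 160 and 82 UMIs left, stayed past it (-1.41 to -0.62). Igfbp4 was at -0.09 (-0.21 to 0.02) and Igfbp2 at 0.02 (-0.32 to 0.36). The summed periocular mesenchyme markers stood at 150.4 CPM in control and 67.2 CPM in mutant endothelial-like cells, and the red blood cell markers at 365.1 and 1121 CPM; their part in these values was not tested. With cells of up to 20000 UMIs alone, no member was counted in this class, and Igfbp7 was at -0.30.

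Igf1 in macrophage-like cells and Igfbp3 in tendon-like mesenchyme were both higher in the mutant library. Igf1 had 98 UMIs in 123 control and 229 UMIs in 136 mutant macrophage-like cells (1.21, 0.87 to 1.58). The cells with a UMI were 35.0% and 39.7%, and the highest cell held 11 UMIs among control and 36 UMIs among mutant cells. With cells of up to 20000 UMIs alone it was 0.31, and the cluster also held Cpa3 and S100a8, genes of mast cells and neutrophils. Igfbp3 in tendon-like mesenchyme had 29 UMIs in 178 control and 142 UMIs in 320 mutant cells (1.55, 1.00 to 2.22), with 2.03 without the top cells and 0.66 in male cells alone. Stc1, which encodes an inhibitor of the Igfbp proteases Pappa and Pappa2, was higher in the same class (39 and 130 UMIs, 1.01) and Pappa was lower (31 and 28 UMIs, -0.84). Both are named for being past 1.5-fold in the pathway list below, and a link to the Igfbp3 level was not tested. In surface ectoderm-like cells Igfbp5 had 166 and 72 UMIs (-1.02, -1.45 to -0.63) and Igfbp2 was at 0.19 (0.07 to 0.31). Igfbp7 had 19 control UMIs and 0 mutant UMIs there. In that mutant class 3 UMIs would be 5.26 CPM, and the exact Poisson interval of 0 reaches 6.47 CPM.

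**Figure D5:**
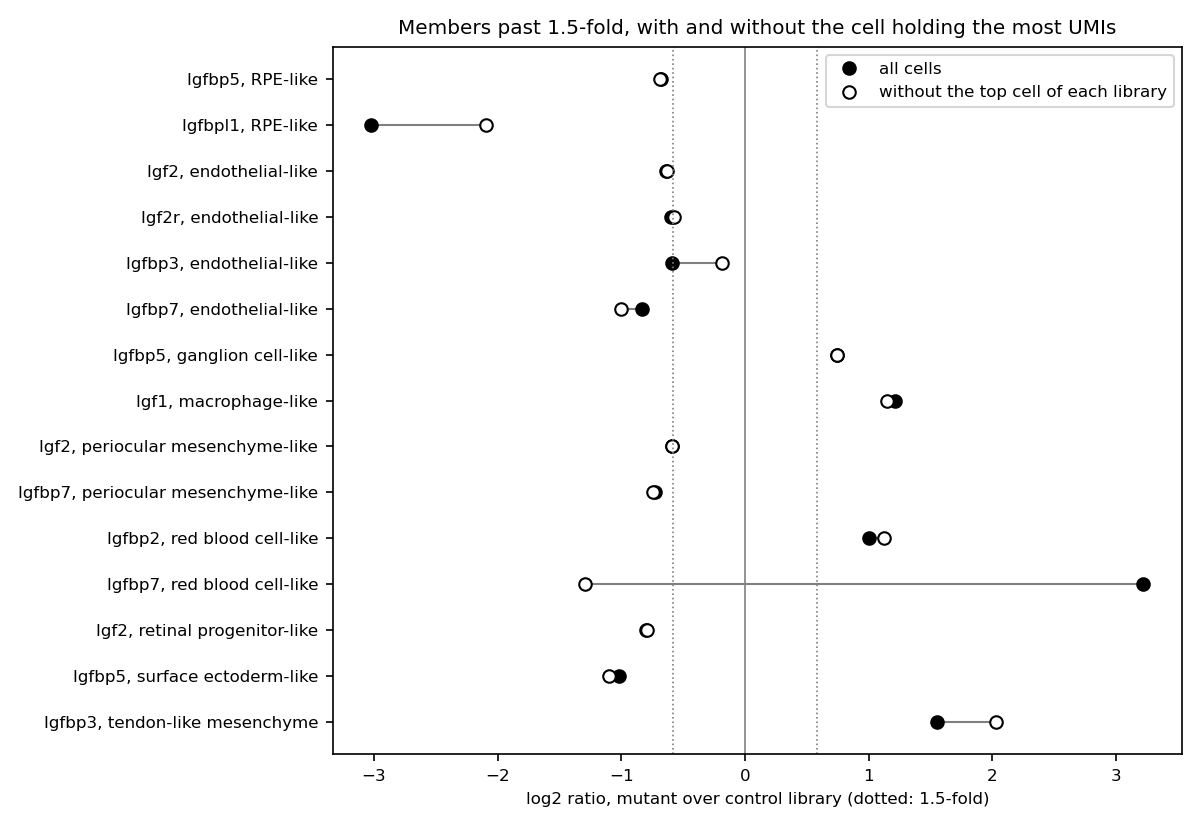
The log2 ratio of mutant over control library (x axis) for the 15 pairs of member and class past 1.5-fold (y axis), from all cells (filled) and without the cell with the most UMIs of the gene in each library (open). Igfbp3 in endothelial-like cells goes from -0.59 to -0.19 and Igfbp7 in red blood cell-like cells from 3.22 to -1.29.

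The other genes of the pathway, 35 in all from insulin receptors and binding protein proteases to the signalling relay, were measured in the same way. Of those with at least 50 UMIs, none was past 1.5-fold of 17 in RPE-like, of 24 in retinal progenitor-like or of 26 in periocular mesenchyme-like cells. Their median log2 ratios were 0.03, -0.06 and -0.09. In endothelial-like cells 1 of 10 was, H19 with 1154 and 784 UMIs (-0.59). In tendon-like mesenchyme 20 had at least 50 UMIs. Those past 1.5-fold included Stc1 and Irs2, an adaptor of the receptors (26 and 70 UMIs, 0.69), on the higher side, and Pappa on the lower. In macrophage-like cells Grb10, an adaptor that restrains the receptor, was lower (75 and 35 UMIs, -1.08) and Foxo3 higher (22 and 34 UMIs, 0.60), of 9. In ganglion cell-like cells Tsc1, which restrains growth signalling, was higher (21 and 45 UMIs, 0.73), of 17. H19 and Foxo3 in neurogenic precursor-like cells (-0.60 and -0.61), H19 in amacrine or horizontal-like cells (-0.75) and Igf2bp1 in red blood cell-like cells (1.22) were also past 1.5-fold. Of all genes, 8.86% were past it in macrophage-like, 6.57% in endothelial-like, 5.64% in tendon-like and 4.44% in ganglion cell-like cells. The share was 4.12% in neurogenic precursor-like, 7.89% in amacrine or horizontal-like and 36.2% in red blood cell-like cells. The pathway ratios are given without intervals, so those on few UMIs may lie within counting error. Among RPE-like cells the protease Htra1, which cleaves matrix and Igfbp proteins, had its highest class level at 47.0 and 50.1 CPM.

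Likeness of pattern was taken as Pearson's r of log2(CPM + 1) over 30 points, the 15 classes in each library, as a description; the points share 2 libraries and the same cells. Igfbpl1 was most like Elavl2 and Stmn2 (both 0.953) and Sp8 (0.946). Igf1r was most like Crebzf and 2810001G20Rik (both 0.944) and R3hdm2 (0.938). Igf1 was most like Tgfbi (0.888), Gata2 (0.866) and Creb3l1 (0.865). The remainder of UMIs given to Igf2 was most like H19 (0.874), Wisp1 (0.849) and Airn (0.837). Igf2r was most like Pxdn (0.882), Fermt2 (0.871) and Amotl1 (0.854).

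Among the binding proteins, Igfbp2 was most like Ptprd (0.870), Raver2 (0.843) and Rps6ka6 (0.840). For Igfbp4 these were Rras (0.859), Pgm1 (0.856) and Card19 (0.851). Igfbp3 was most like Peg10 (0.821), Zcchc24 (0.794) and Dapk2 (0.783), and Igfbp5 most like Fzd2 (0.830), Pcdh9 (0.806) and Me1 (0.799). Igfbp7 was most like Cavin2 (0.826), Nid2 (0.797) and Fzd4 (0.774).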

How the data were processed

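Single cells of pooled eye cups were measured with the 10x Genomics 3′ assay. The authors used Cell Ranger 7.1.0 and GRCm38 (mm10), and deposited raw UMI counts per gene and barcode for each library. Seurat 4.1.1 is also named in the submitters' processing notes. The annotation release is not given in the sources used here; coordinates and exon overlaps are from GENCODE vM21 of the same build.

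Cells with at least 200 genes and at most 15% mitochondrial UMIs were kept, and 68 control and 65 mutant doublets found by Scrublet (scanpy 1.11.5) were removed. The study's own upper limit of 2000 counts per cell leaves 1181 control and 1099 mutant cells and was tried as an alternative. Libraries were integrated and clustered in Seurat 5.3.0 (R 4.3.3; 2000 variable features without the IGF genes, 30 dimensions, resolution 0.8). Clusters were named from marker lists by a rule set after the clusters were seen: mean log2 fold of at least 0.7, with at least 50% and at least 3 of the markers above 2-fold. In all, 72 barcodes occurred in both libraries.

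Counts were summed per class and library. Intervals are exact (Poisson for levels, conditional binomial for ratios) at 95% and cover counting error only. The ratio intervals were also run on Poisson counts simulated for RPE-like cells. Those counts lack the clumping of UMIs in single cells, so the run cannot show how the intervals fare with it. Classes in the order of levels were called apart only where both libraries of one were above both of the other with no overlap of intervals. The genes named are the 10 members in every class, pathway genes past 1.5-fold among those reported here, and, for each member with at least 1000 UMIs, the 3 genes of most like pattern among those with at least 500 UMIs. Alternatives included female and male cells apart, told by Xist and Y-linked UMIs, other depth and mitochondrial limits, clusterings, scalings and UMI minimums. The members, gene lists and alternatives were chosen with earlier results of these data known. Some results of the pathway list are not reported here.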

Additional observations from a re-analysis of the deposited data

Results flagged for a closer look

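For 3 members the mutant library was higher than the control in one class and lower in another, both past 1.5-fold and both beyond counting error. With 1 library per genotype these differences between classes were not tested. Igfbp3 was at 1.55 in tendon-like mesenchyme and -0.59 in endothelial-like cells, a difference of 2.14 on the log2 scale, and the endothelial value was -0.19 without the top cell of each library. Igfbp5 was at 0.74 in ganglion cell-like and -1.02 in surface ectoderm-like cells, a difference of 1.76. Igfbp7 was at 3.22 in red blood cell-like and -0.83 in endothelial-like cells, a difference of 4.05, and 1 mutant cell held 98.5% of the mutant UMIs of the first.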

How the results depend on the processing

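The counts of members past 1.5-fold were small and moved with the processing. In RPE-like cells 2 became 1 with cells of up to 2000 UMIs, with a mitochondrial limit of 5% and with a minimum of 200 UMIs, 0 with cells of up to 20000 UMIs and 4 in male cells. In retinal progenitor-like cells 1 became 2 without doublet removal, with all variable features, without integration, at a resolution of 1.6 and with a minimum of 1 UMI, and 0 with cells of up to 20000 UMIs, in female or in male cells and with a minimum of 200 UMIs. In periocular mesenchyme-like cells 2 became 1 without doublet removal, at a resolution of 0.4, with cells of up to 20000 UMIs and under both other scalings, and 0 in female cells. In endothelial-like cells 4 became 1 without doublet removal and with a mitochondrial limit of 5%, 0 with cells of up to 2000 or 20000 UMIs, and 2 under both other scalings, with a minimum of 200 UMIs and without the top cell of each gene. The lost Igf2 count in progenitor-like cells came from the UMI minimum, since its log2 ratio stayed past 1.5-fold (-1.07 to -0.62) in 13 of 13 alternatives. For the other counts the cause was not tested. Of 279 recomputed log2 ratios, 244 stayed inside the counting interval of the first value, against 153 of 228 levels and 7 of 40 shares of cells. In 10 the sign turned. For 3 of these the first value was past 1.5-fold: Igfbp5 in ganglion cell-like cells (-0.08 at a resolution of 0.4), Igfbp5 in surface ectoderm-like cells (0.01 with cells of up to 2000 UMIs) and Igfbp7 in red blood cell-like cells (-1.29 without the top cells). The other 7 were in RPE-like cells: Igf1r (0.66), Igf2r (0.56) and Igfbp7 (0.02) with cells of up to 2000 UMIs, Igfbp7 without the cells high in it (0.34), Igfbp4 in male cells (0.12), and Igfbp2, near 0 throughout, in male cells (-0.04) and with cells of up to 20000 UMIs (-0.01). Apart from Igf2, the leading class changed with cells of up to 2000 UMIs for Igf1 (macrophage-like), Igf1r (RPE-like) and Igf2r (endothelial-like). Tendon-like mesenchyme, the first leader for Igf1 and Igf2r, had under 30 cells in a library there. With cells of up to 20000 UMIs it changed for Igfbp7 (endothelial-like). At a resolution of 0.4 no tendon-like class was named. Periocular mesenchyme-like cells then led for Igf1 and melanocyte-like cells for Igf2r. With all variable features no amacrine or horizontal-like class was named, and RPE-like cells led for Igf1r. In female and in male cells RPE-like cells led for Igfbp2, and surface ectoderm-like cells were under 30 in a library. Where the first leader was missing or small, the change does not measure how firm its lead was. Scaling by the median of gene ratios moved the log2 ratios in red blood cell-like cells by 0.440. Leaving out cells with barcodes found in both libraries, the top cells or the cells high in Igfbp7 was chosen after seeing the data. No count for pericyte-like cells could be given, since no cluster took that name, and sex-specific or shallow subsets with under 30 cells in a library gave no value. No paired analysis was possible because each genotype was 1 library.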

Other observations

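Among the unnamed cells, cluster 22 (60 control and 63 mutant cells, median depth 1100 UMIs) had the highest Igfbp7 level of all clusters, 1714 CPM in the control and 1783 CPM in the mutant library. Its 151 and 154 UMIs gave a log2 ratio of 0.06 (-0.28 to 0.39). It was led by Cxcl14, S100a4 and S100a6 and matched no marker list. In cluster 19, unnamed mesenchyme-marked cells, Igf1 had 198 control and 112 mutant UMIs (-0.89, -1.25 to -0.56), unlike the 0.01 of periocular mesenchyme-like cells.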
